A study of Mus musculus with 11 samples.

Results

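Complement genes were followed in mPFC CRF1+ neurons, the cells of the medial prefrontal cortex that carry corticotropin-releasing factor receptor 1. The 9 genes (C1qa, C1qb, C1qc, C1ra, C1s1, C3, C4b, Cd55 and C1ql3) were given by name and are 9 of the 53465 genes counted. Each library held RNA of the GFP-positive cells sorted from the mPFC of 1 adult male CRF1:GFP mouse, in which a transgene drives GFP in CRF1-expressing cells. The 6 naïve mice breathed air and received pyrazole, an inhibitor of alcohol dehydrogenase. The 5 withdrawn mice received ethanol with pyrazole and 5 to 6 weeks of intermittent ethanol vapor, and were taken 5 to 8 days into abstinence. All mice were at least 10 weeks old, carried the same reporter and had pyrazole in common. For 3 of the 5 withdrawn mice (3, 4 and 5) the title and the treatment say ethanol but another label reads control and carries the animal number of a naïve mouse. The deposit's design text also gives 5 control and 6 ethanol mice, the reverse of the sizes by treatment label. Each member's value without these 3 mice is therefore given beside its result. The comparison asks which complement transcripts differ between withdrawn and naïve mice in this cell population.

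Complement is a cascade of plasma and tissue proteins. C1q, built of chains A, B and C, recognises its target, the proteases C1r and C1s then cleave C4 and C2, and the resulting enzyme cleaves C3, whose fragments tag surfaces for uptake and lead on to the membrane attack complex. In brain, C1q is made mostly by microglia, C3 and C4 largely by glia, and tagging of synapses by C1q and C3 is known from developmental synapse elimination. Host cells carry regulators such as CD55, which takes the C3-cleaving enzyme apart. C1QL3 shares the globular C1q domain but is a secreted synaptic protein that binds the adhesion receptor ADGRB3 (BAI3), and is not a step of the cascade.

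Each mouse had between 7351567 and 22244869 counts on genes (median 14231176), and the genes with at least 1 count from 15585 in naïve mouse 5 to 31830. A limit of 3 counts, the most that a count of 0 allows, corresponds to 0.135 to 0.408 CPM (counts of a gene per 1000000 counts). Reads came from amplified cDNA with no molecular identifiers, so this limit covers counting error only. Crhr1, which encodes CRF1, had 92.7 ± 21.5 CPM in naïve (SD, n = 6) and 89.3 ± 33.6 CPM in withdrawn mice (SD, n = 5), and Slc17a7, the marker of cortical glutamatergic neurons, 1435 ± 346 and 1362 ± 447 CPM. Gad2, a marker of GABAergic neurons, stood at 39.9 ± 21.5 and 57.5 ± 47.3 CPM. In a sorted pool, fewer cells of a type and less RNA per cell cannot be told apart.

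The members lie on 5 chromosomes (GRCm38, all protein-coding). The C1q chain genes sit together on the minus strand of chromosome 4 within 18675 bases, C1qb at chr4:136880129-136886187, C1qc at chr4:136889804-136893065 and C1qa at chr4:136895917-136898803. C1ra (chr6:124512405-124523443, plus strand) and C1s1 (chr6:124530345-124542359, minus strand) are neighbours. C4b (chr17:34728380-34743882) and C3 (chr17:57203970-57228136) share chromosome 17, Cd55 lies at chr1:130439027-130462744 and C1ql3 at chr2:13003457-13011806, all on the minus strand. The 250 bases before the RefSeq start (GRCm38.p6) are shown for a recognition chain, the central component and a regulator, because these genes stand for the steps of the cascade that the results describe and their RefSeq start lies at or before the annotated gene start. Capitals mark GAGGAA, the core of sites bound by the myeloid factor PU.1, searched on both strands.
C1qb, chr4:136886201-136886450, minus strand: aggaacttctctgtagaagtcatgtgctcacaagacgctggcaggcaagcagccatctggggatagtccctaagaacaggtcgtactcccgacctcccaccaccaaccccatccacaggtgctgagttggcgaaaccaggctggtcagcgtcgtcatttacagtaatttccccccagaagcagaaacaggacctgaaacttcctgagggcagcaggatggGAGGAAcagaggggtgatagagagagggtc
C3, chr17:57228137-57228386, minus strand: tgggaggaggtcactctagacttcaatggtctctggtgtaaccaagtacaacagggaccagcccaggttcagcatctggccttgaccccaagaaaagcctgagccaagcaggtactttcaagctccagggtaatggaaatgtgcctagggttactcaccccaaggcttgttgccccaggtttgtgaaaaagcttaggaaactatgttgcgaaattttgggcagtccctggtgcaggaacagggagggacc
Cd55, chr1:130462745-130462994, minus strand: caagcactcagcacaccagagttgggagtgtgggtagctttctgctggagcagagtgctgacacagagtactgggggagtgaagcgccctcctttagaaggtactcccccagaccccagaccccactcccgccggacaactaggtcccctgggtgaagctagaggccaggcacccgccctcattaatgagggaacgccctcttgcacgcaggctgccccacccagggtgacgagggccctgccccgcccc
The C1qb window held GAGGAA once, 30 bases before the start. The C3 and Cd55 windows did not hold these letters, and 7639 of 32851 windows of that length did (23.3%). The CG dinucleotide occurred 6 times in the C1qb window, 1 time in that of C3 and 8 times in that of Cd55, against a median of 6 over all windows. A match is a run of letters and not evidence of binding.

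The members differed widely in level. Per kilobase of exon (TPM, length-scaled counts summing to 1000000 per mouse, mean of 11 mice), C1ql3 led with 48.2 TPM, above 79.5% of the 17093 genes that passed the filter on low counts. Next came Cd55 with 4.25 TPM, C1ra with 3.81 TPM and C4b with 3.73 TPM, which lay above 25.7 to 28.1% of those genes. Cd55 had 4.26 ± 3.01 TPM in naïve and 4.24 ± 1.95 TPM in withdrawn mice, C1ra 1.23 ± 1.74 and 6.89 ± 4.32 TPM, and C4b 1.59 ± 1.86 and 6.31 ± 5.64 TPM, so that these neighbours in the order did not differ beyond their spread. C1qb (1.99 TPM), C1qa (1.45 TPM), C1qc (0.699 TPM), C1s1 (0.62 TPM) and C3 (0.463 TPM) came last. This order holds for the mean over all 11 mice. In naïve mice C1qb, at 2.91 TPM, lay above C1ra and C4b, and C3 had reads in 8 mice, as did C1ra and C4b. Neighbours among these 5 genes did not differ beyond their spread either, and each of the 5 had mice with no read.

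None of the 9 members passed the test between withdrawn and naïve mice. The filter kept 4 of them (C1ra, C4b, Cd55 and C1ql3), and edgeR's quasi-likelihood test, with p adjusted over all tested genes, called 0 of these 4, where a call needs a log2 fold change beyond 0.6 and an adjusted p no higher than 0.05. Over all genes it called 1 of 17093 (0.00585%), Ptgdr, a prostaglandin D2 receptor that is named here after its value was seen. At an unadjusted p under 0.05 it found 0 of the 4 members, against 7.22% of all tested genes. DESeq2 called 0 of the 9 and gave C1qc no p, against a call in 1.54% of the genes it adjusted, and gave 1 member, C1ra, an unadjusted p under 0.05, against 6.24% of genes. In no member were the groups of CPM values free of overlap, which they were in 0.948% of tested genes.

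**Figure D1:**
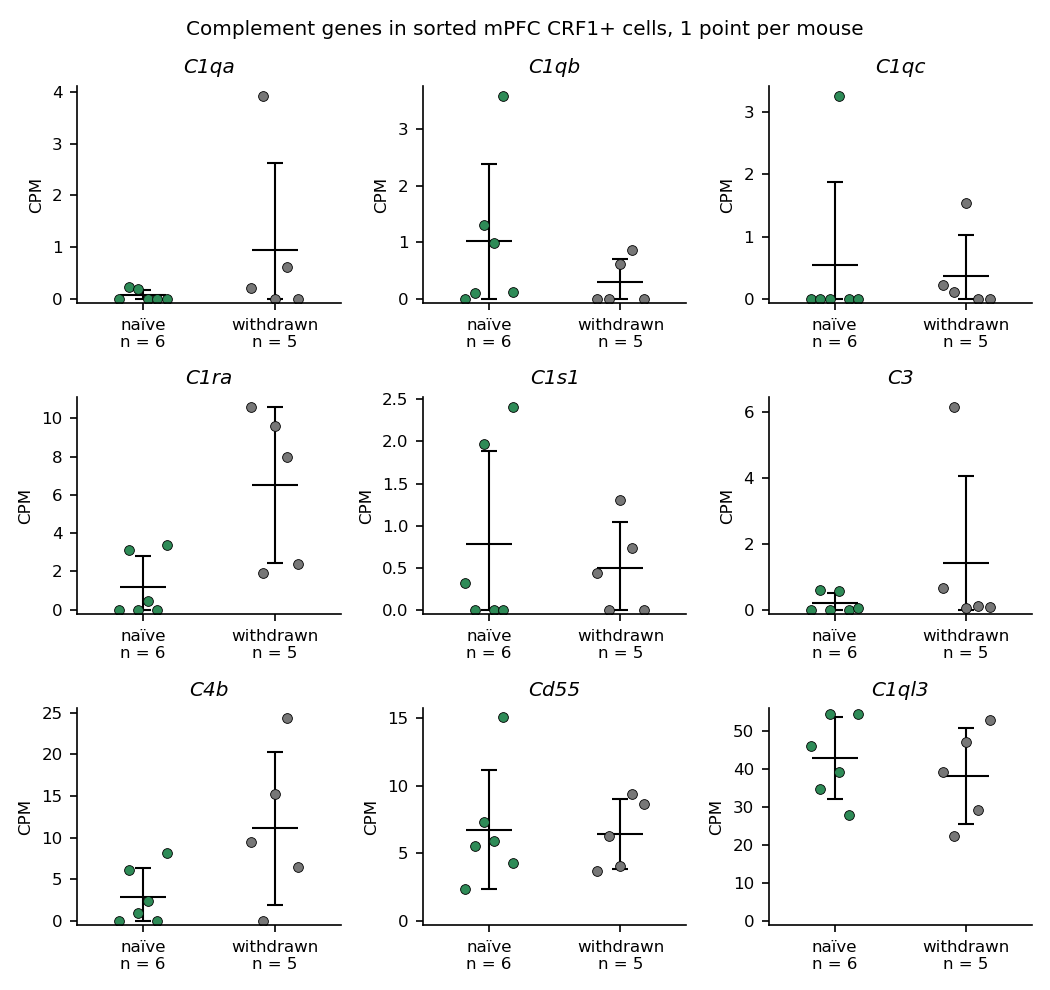
CPM of the 9 complement genes, with 1 panel per gene, 1 point per mouse (green, naïve, n = 6; grey, withdrawn, n = 5), a horizontal bar at the group mean and whiskers of 1 SD, cut off at 0. C1ra and C4b reach 10.6 and 24.3 CPM in withdrawn mice, Cd55 and C1ql3 are above 0 in every mouse, and each of the other 5 genes is at 0 in at least 1 mouse.

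The C1q chains, which form the recognition molecule, were at the edge of detection. C1qa had 4 reads in naïve mouse 2, 2 in naïve mouse 3 and none in the other naïve mice, and 3, 35, 0, 5 and 0 reads in withdrawn mice 1 to 5. C1qb had 0, 2, 14, 17, 53 and 2 reads in naïve mice 1 to 6, and 0, 0, 13, 7 and 0 in withdrawn mice 1 to 5. C1qc had 56 reads in naïve mouse 4 and none in the other naïve mice, and 3, 1, 33, 0 and 0 in withdrawn mice 1 to 5. The highest count of each chain thus lay in a different mouse. No mouse had reads on all 3 chains, 7 mice had reads on 2 of them, 2 mice on 1, and 2 mice, naïve 1 and withdrawn 5, on none.

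Summed over the chains, C1q stood at 0 to 4.25 CPM in naïve mice (median 0.915 CPM) and at 0 to 4.03 CPM in withdrawn mice (median 1.48 CPM), so the groups overlapped over almost their whole range. Withdrawn mouse 2 alone gave 82.5% of the withdrawn sum of C1qa, and withdrawn mouse 3 82.5% of that of C1qc. Two-sided exact permutation tests of mean log2 CPM over the 462 splits of the 11 mice gave p = 0.229 for C1qa, p = 0.303 for C1qb and p = 0.697 for C1qc, where the smallest possible p is 0.00216. On that scale withdrawn minus naïve was 1.28 for C1qa, -1.08 for C1qb and 0.38 for C1qc. DESeq2, and edgeR with no filter, gave fitted log2 fold changes for these genes, which are on another scale than the difference of mean log2 CPM. For C1qa the value depended on the setting, at 0.50 without withdrawn mouse 2, 3.86 in DESeq2 (unadjusted p = 0.0581), 3.56 in edgeR with no filter (unadjusted p = 0.0504) and 2.60 without the 3 mice of disagreeing labels (exact permutation p = 0.0714). C1qb stood at -1.78 in DESeq2 and -1.83 with no filter, and at -2.11 without those 3 mice (exact permutation p = 0.179). C1qc stood at 0.28 without them and turned to -0.49 in DESeq2 and -0.46 with no filter.

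**Figure D2:**
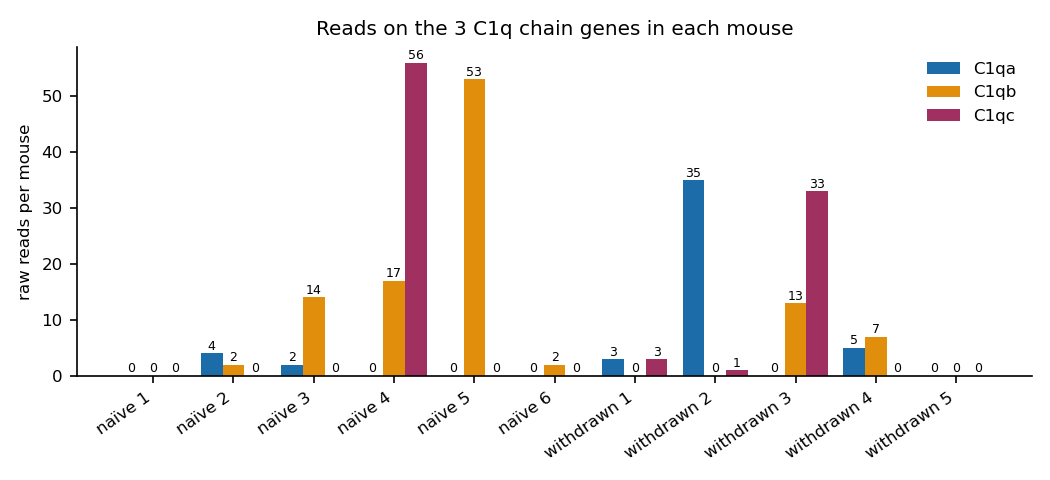
Raw reads (y axis) on C1qa, C1qb and C1qc in each of the 11 mice (x axis), 1 bar per gene with its count written above. The tallest bars are C1qc in naïve 4 (56 reads), C1qb in naïve 5 (53 reads) and C1qa in withdrawn 2 (35 reads), and no mouse has all 3 bars above 0.

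Markers of microglia, the cells known for making C1q, were low in the same libraries. P2ry12, a purinergic receptor that defines microglia, had reads in 3 of 11 mice and at most 0.934 CPM. Cx3cr1, the fractalkine receptor, had reads in 7 mice and at most 1.69 CPM. Csf1r, the receptor for CSF1, had 0.977 ± 1.16 CPM in naïve and 0.832 ± 1.25 CPM in withdrawn mice, and Aif1, which encodes IBA1, 0.899 ± 0.830 and 0.639 ± 1.07 CPM. Each of these 4 markers averaged under 1 CPM in both groups.

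Tmem119, a membrane protein used as a microglial marker, had 0.543 ± 0.822 CPM in naïve and 7.39 ± 5.11 CPM in withdrawn mice, a log2 fold change of 3.75 ± 1.47 (SE) with an unadjusted p of 0.0235 and an adjusted p of 0.558 in edgeR. The 10 microglial genes summed to 0.203 to 9.09 CPM in naïve (median 7.13 CPM) and 7.28 to 24.2 CPM in withdrawn mice (median 13.9 CPM), with only withdrawn mouse 2 inside the naïve range. That separation rested on Tmem119. The other 9 genes summed to 0.203 to 7.95 CPM in naïve (median 6.39 CPM) and 4.72 to 9.84 CPM in withdrawn mice (median 7.28 CPM), with 2 of the 5 withdrawn mice above the naïve range. Of the 5 that passed the filter, 3 had a fold change above 0 and 1, Tmem119, an unadjusted p under 0.05. Markers of perivascular macrophages, which also make C1q, summed to 0 to 3.94 and 0.920 to 9.96 CPM. By mouse, the C1q sum was 0 to 17.7 times the sum of the 10 microglial genes in naïve mice and 0 to 0.554 times in withdrawn mice. Naïve mouse 5 gave the highest ratio, with 3.59 CPM of C1q and 0.203 CPM of these markers. The part of microglia and perivascular macrophages in the C1q reads was not tested.

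The C1 proteases were read separately and were not tested against each other. C1ra, which encodes C1r, had 0, 3.13, 0, 0.466, 0 and 3.40 CPM in naïve mice 1 to 6. In withdrawn mice 1 to 5 it had 10.6, 1.90, 9.62, 7.99 and 2.4 CPM. Withdrawn mice 1, 3 and 4 lay above every naïve mouse, withdrawn mice 2 and 5 lay within the naïve range, and 3 of 6 naïve mice had no read while all 5 withdrawn mice did. The means were 1.17 ± 1.64 CPM in naïve (SD, n = 6) and 6.5 ± 4.08 CPM in withdrawn mice (SD, n = 5). The log2 fold change was 2.46 ± 1.27 (SE, 95% interval -0.28 to 5.19) with an adjusted p of 0.754 in edgeR.

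For C1ra the tools gave unlike unadjusted p-values on the same counts. They were 0.0745 in edgeR, 0.0398 in DESeq2 and 0.00967 in voom with sample weights, with adjusted p of 0.754, 0.435 and 0.324, and an exact permutation of its mean log2 CPM, 1 of 9 such tests, gave an unadjusted p = 0.0216. Its fold change was above 0 in all 7 alternative settings and all 11 fits that left out 1 mouse, at 2.20 to 3.13 in the latter, and no adjusted p there was below 0.656. Without the 3 mice of disagreeing labels it was 2.37 with an adjusted p of 0.838 in edgeR.

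C1s1, which encodes the partner protease C1s, had 3, 0, 21, 0, 0 and 39 reads in naïve mice 1 to 6 and 6, 0, 28, 6 and 0 in withdrawn mice 1 to 5. Naïve mice 3 and 6 and withdrawn mouse 3 held most of them, and both groups had mice with none. The difference on the log2 CPM scale was -0.03 (exact permutation p = 0.978), and its sign turned in 4 of the 11 comparisons that left out 1 mouse. It was -0.62 in DESeq2 and -0.64 with no filter, and -0.62 without the 3 mice of disagreeing labels (exact permutation p = 0.821). An antisense gene, Gm16567, overlaps 576 of the 3129 exonic bases of C1s1 and had no reads. The mouse copies of these proteases, C1rb and C1s2, stood at 7 reads in 1 naïve mouse and at 0.617 ± 0.496 against 1.15 ± 1.66 CPM, and reads common to a gene and its copy could be lost or split in counting.

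C4b encodes the mouse C4 that carries the cascade from C1s to C3. It had 0, 6.10, 0.937, 2.33, 0 and 8.09 CPM in naïve mice 1 to 6 and 9.44, 0, 15.3, 24.3 and 6.51 CPM in withdrawn mice 1 to 5. Withdrawn mice 1, 3 and 4 lay above every naïve mouse, as they did for C1ra, and withdrawn mouse 2 had no read among 8696939 counts. Withdrawn mouse 4, the highest, had the fewest counts on genes (7351567) and the largest share of reads outside genes (48.1%). The means were 2.91 ± 3.41 and 11.1 ± 9.22 CPM, with a log2 fold change of 1.92 ± 1.30 (SE, 95% interval -0.88 to 4.72) and an adjusted p of 0.831 in edgeR. It was 0.67 without the 3 mice whose labels disagree, and 2.22 without withdrawn mouse 2. The near-identical gene C4a, at 1.37 ± 1.99 and 0.609 ± 0.693 CPM, had a log2 fold change of -1.14 ± 1.28 and an adjusted p of 0.912 in edgeR. Assignment of reads between C4a and C4b is uncertain.

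C3, the central component, was near the counting limit. It had 0, 11, 0, 10, 0 and 1 reads in naïve mice 1 to 6 and 9, 55, 1, 1 and 1 in withdrawn mice 1 to 5. Withdrawn mouse 2, which had no C4b read, held 87.4% of the withdrawn C3 sum. On the log2 CPM scale the difference was 1.09 (exact permutation p = 0.34), 0.21 without withdrawn mouse 2, 2.79 in DESeq2 and 2.60 with no filter. With the 3 mice of disagreeing labels left out, the 2 remaining withdrawn mice gave a difference of 3.02 and an unadjusted p = 0.0357 in the exact permutation test, the smallest p that 2 against 6 mice can give.

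Cd55, the regulator of the C3-cleaving enzyme, was detected in every mouse, with 22 to 223 reads. Its levels were 2.36, 5.55, 7.31, 5.88, 15.1 and 4.26 CPM in naïve mice 1 to 6 and 3.67, 6.27, 4.02, 9.34 and 8.63 CPM in withdrawn mice 1 to 5. Naïve mouse 5 was the highest and naïve mouse 1 the lowest, and all withdrawn mice lay between them. The library of naïve mouse 5, which also held the highest C1qb count, had the fewest genes with a count (15585). It also had the smallest share of reads outside genes (5.77%). The log2 fold change was -0.08 ± 0.55 (SE, 95% interval -1.27 to 1.10) with an adjusted p of 0.987 in edgeR. Without naïve mouse 5 it was 0.34, and its sign also turned without withdrawn mouse 1, without withdrawn mouse 3 and in voom. It was -0.50 without the 3 mice of disagreeing labels. An antisense gene, Gm16083, overlaps 102 of 4853 exonic bases and had at most 35 reads. The copy Cd55b had at most 2 reads.

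C1ql3 was the most abundant and the steadiest of the 9 genes. It had 45.9, 34.5, 54.4, 39.3, 27.8 and 54.3 CPM in naïve mice 1 to 6 and 39.0, 22.3, 47.0, 29.3 and 52.9 CPM in withdrawn mice 1 to 5. The coefficient of variation was 25.2% and 32.9%, against 40.5 to 245% for the other members. The log2 fold change was -0.16 ± 0.27 (SE, 95% interval -0.74 to 0.41) with an adjusted p of 0.949 in edgeR, 0.00 in voom and -0.52 without the 3 mice of disagreeing labels. A change of more than 0.74 in either direction lay outside the interval of the fit on all mice. In each mouse the TPM of C1ql3 was 1.1 to 30.7 times the summed TPM of the other 8 members. Antisense genes Gm37824 and Gm37811 overlap 1627 of its 2535 exonic bases, with at most 79 and 44 reads. Whether counting used strand is not given in the sources used here, so reads of C1ql3 and these partners may not be told apart, or may have been dropped as ambiguous.

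The genes whose log2 CPM followed each member most closely over the 11 mice were ranked by the root mean square difference after centring, as a description. For C1ql3 they were Socs5 (0.144), Bpnt1 (0.186) and Cebpz (0.187), against a spread of C1ql3 itself of 0.411. For Cd55 they were Trim68 (0.341), Gopc (0.379) and Kansl2-ps (0.391), against 0.684. For C1ra they were Parp9 (0.735), Fgfr2 (0.838) and Fat4 (0.889), against 2.35, and for C4b AI506816 (0.779), Tor4a (0.80) and Trabd2b (0.872), against 2.70. The differences were smallest for C1ql3, whose own spread was also the smallest, so they do not show that it was tracked more closely. Within a mouse all genes share the depth of its library, and genes with low counts share zeros.

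Beyond the 9 members, 58 other genes of the pathway list were read by role, 51 of the complement system and its relatives and 7 C1q-domain synaptic proteins and their receptor, which are no steps of the cascade. Of the 58, 30 passed the filter, 14 with a fold change above 0 (51.8% of all tested genes had one) and 16 below, with a median log2 fold change of -0.04 against 0.02 over all tested genes. None was called by edgeR or by DESeq2. At an unadjusted p under 0.05, edgeR found 1 higher and 1 lower in withdrawn mice, where 5% and 2.22% of all tested genes were, and DESeq2 found 3 higher and 1 lower, where 4.99% and 1.25% of the genes with a p were. The 51 genes without the synaptic group held the same counts at that p, and 25 of them passed the filter, 13 with a fold change above 0.

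**Figure D3:**
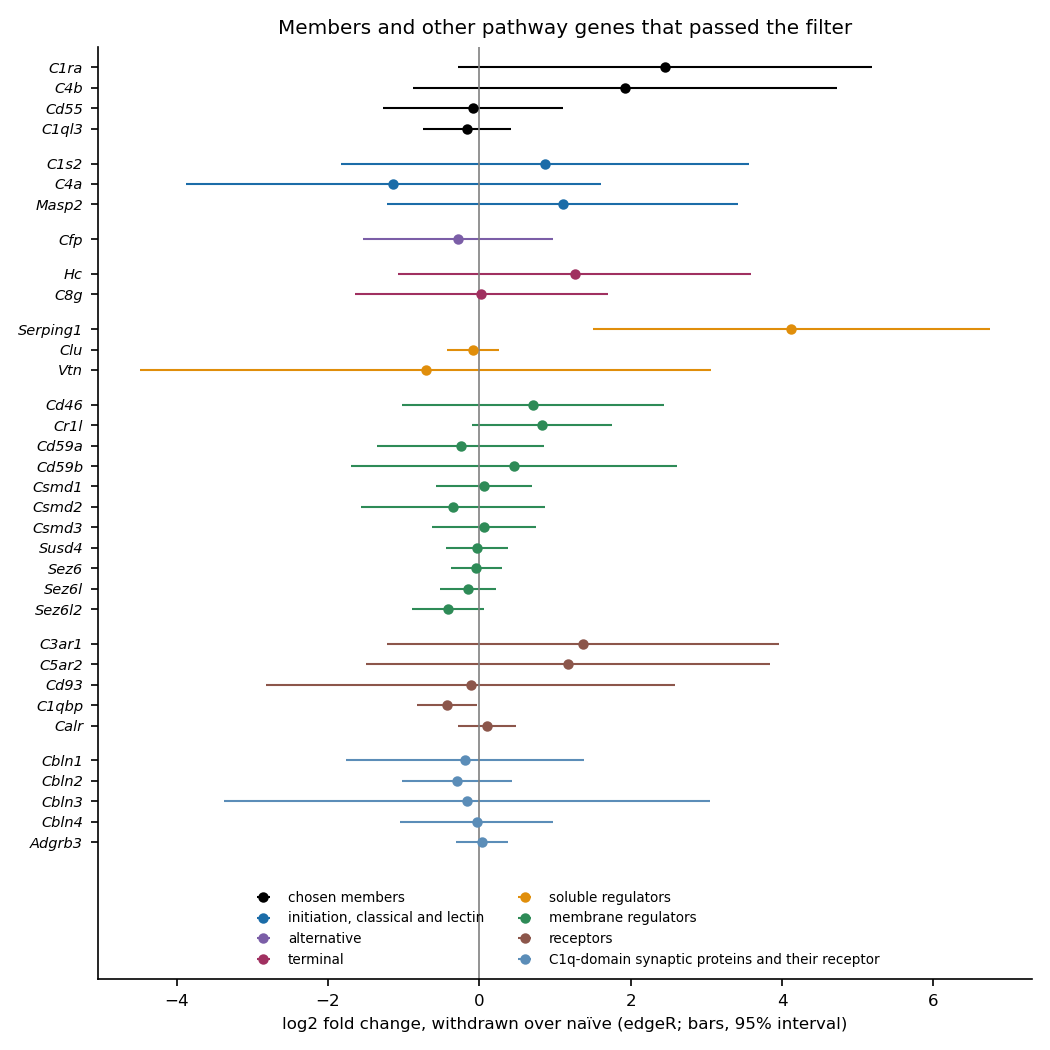
log2 fold change of withdrawn over naïve mice (x axis, edgeR; points, estimates; bars, 95% intervals) for the 4 members (black) and 30 other genes of the pathway list (y axis) that passed the filter, coloured by role. The interval of Serping1 lies above 0 and that of C1qbp below, before adjustment for the number of genes, and the intervals of the other genes include 0.

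Of 5 soluble regulators 3 passed the filter, and the higher gene was among them. Serping1, the C1 inhibitor that blocks C1r and C1s, had 0.215, 0.988, 3.37, 6.70, 8.06 and 0 CPM in naïve mice 1 to 6 and 64.0, 0, 58.0, 126 and 35.1 CPM in withdrawn mice 1 to 5. Withdrawn mice 1, 3, 4 and 5 lay above all naïve mice and withdrawn mouse 2 had no read. Serping1 had a log2 fold change of 4.12 ± 1.22 (SE) with an unadjusted p of 0.00459 and an adjusted p of 0.311 in edgeR.

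The result for Serping1 turned on withdrawn mouse 2. Without it, edgeR gave Serping1 a log2 fold change of 4.41 ± 0.93 and an adjusted p of 0.0422, with 193 genes called among 18170 (1.06%). Without the 3 mice of disagreeing labels the value was 3.29 ± 1.65 with an adjusted p of 0.789 in edgeR. C1ra and C4b without withdrawn mouse 2 had adjusted p of 0.732 and 0.766 in edgeR. Clu, clusterin, was the most abundant soluble regulator with 441 ± 48.9 and 416 ± 87.0 CPM, and a log2 fold change of -0.08 ± 0.16.

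Withdrawn mice 1, 3 and 4, the highest in C1ra, C4b and Serping1, were also the highest in fibroblast markers. The 8 markers summed to 4.51, 18.9, 73.1, 50.5, 0.0677 and 17.4 CPM in naïve mice 1 to 6 and to 1318, 18.4, 672, 927 and 225 CPM in withdrawn mice 1 to 5. Withdrawn mouse 2, at 0 reads of C4b and Serping1 and the lowest withdrawn level of C1ra, was the withdrawn mouse within the naïve range of this sum. Of the 8 markers 6 passed the filter, all 6 had a fold change above 0 and 5 an unadjusted p under 0.05 in edgeR. Dcn, the proteoglycan decorin, had groups that did not overlap (2.51 ± 1.70 and 23.3 ± 21.2 CPM). Lum and Igf2, which did not pass, had lower means in withdrawn mice. Lum had 1.36 ± 2.70 and 0.910 ± 1.08 CPM, and Igf2 0.468 ± 0.433 and 0.0916 ± 0.121 CPM. Among naïve mice the order differed. Naïve mice 3 and 4, the highest in this sum, had at most 0.466 CPM of C1ra and 2.33 CPM of C4b, while naïve mice 2 and 6 led in both genes. Naïve mouse 5, the lowest in the sum, had no read of C1ra or C4b but 8.06 CPM of Serping1. Astrocyte markers summed to 73.1 to 265 CPM in naïve and 60.9 to 442 CPM in withdrawn mice. Withdrawn mice 1, 3 and 4, at 357, 304 and 442 CPM, were also the highest of all mice in this sum. The high withdrawn sums came from Gja1, the gap junction protein connexin 43, at 15.3 ± 12.0 and 187 ± 122 CPM (adjusted p of 0.25 in edgeR), and without it the sums were 70.1 to 233 and 48.1 to 169 CPM. Endothelial markers summed to 9.96 to 920 and 128 to 955 CPM. The part of these cell types in the complement values was not tested.

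**Figure D4:**
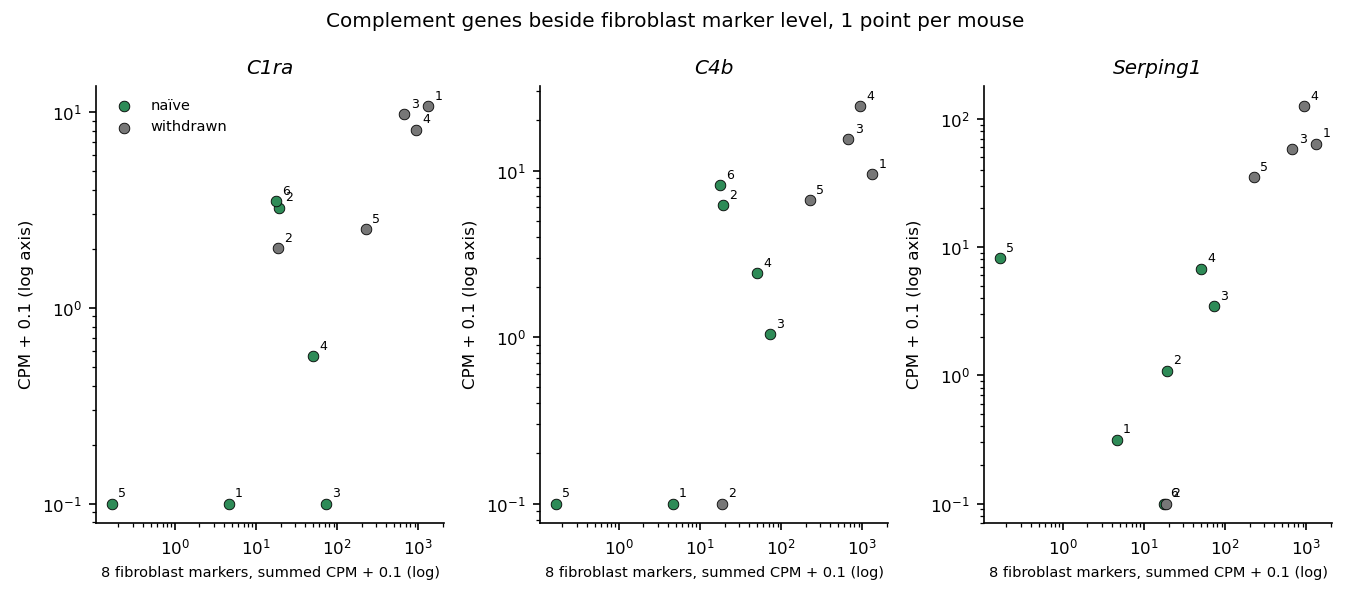
CPM + 0.1 of C1ra, C4b and Serping1 (y axes, log scale) against the summed CPM + 0.1 of 8 fibroblast markers (x axes, log scale), 1 point per mouse with its number (green, naïve; grey, withdrawn). Withdrawn mice 1, 3 and 4 sit at the upper right of each panel, at 672 to 1318 CPM of the markers, and withdrawn mouse 2 lies among the naïve mice on the x axis at 18.4 CPM.

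Among the classical and lectin, alternative-pathway, terminal and membrane regulator genes, none that passed the filter had an unadjusted p under 0.05 in edgeR. Of 13 further genes of the classical and lectin pathways 3 passed the filter, the most abundant being the lectin-pathway protease Masp2 at 1.49 ± 1.08 and 3.24 ± 4.03 CPM, with 1817 of its 3307 exonic bases antisense to Tardbp. Of 3 alternative-pathway genes 1 passed, Cfp, properdin, at 8.65 ± 4.15 and 7.09 ± 4.48 CPM. Cfb had no read, but 2246 of its 2825 exonic bases are shared with Gm20547 on the same strand. Its reads may have been dropped as ambiguous, so this 0 does not show that Cfb was absent. Of 7 terminal components 2 passed, C8g leading at 2.79 ± 2.47 and 2.85 ± 0.792 CPM. The membrane regulators were the best covered role, with 11 of 12 past the filter. Their leading gene Sez6, whose product carries complement control domains and acts at synapses, had 397 ± 51.5 and 385 ± 81.7 CPM, and the log2 fold changes of the 11 spanned -0.42 to 0.83. The highest was that of Cr1l, at 18.3 ± 9.89 CPM in naïve and 32.5 ± 8.57 CPM in withdrawn mice. Its groups overlapped, and edgeR gave it an unadjusted p of 0.0741 and an adjusted p of 0.753.

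Of 11 receptors and binding proteins 5 passed the filter. C1qbp, which encodes a mitochondrial protein that can bind C1q, had 86.0 to 157 CPM in naïve and 66.2 to 102 CPM in withdrawn mice, with overlapping groups, a log2 fold change of -0.43 ± 0.18 (SE), an unadjusted p of 0.0348 and an adjusted p of 0.644 in edgeR. Calr, the chaperone calreticulin, led the role at 282 ± 40.6 and 301 ± 72.5 CPM. Among the C1q-domain synaptic proteins and their receptor, the nearest relatives of C1ql3 by role, 5 of 7 passed, with log2 fold changes of -0.29 to 0.04. Cbln2, a synaptic organiser, led with 130 ± 47.3 and 106 ± 62.5 CPM, and Adgrb3, the receptor that C1QL3 binds, had 124 ± 24.2 and 128 ± 8.35 CPM.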

How the data were processed

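RNA of FACS-sorted mPFC CRF1+ neurons (160 pg per mouse, SMARTseq HT) was sequenced from 6 naïve and 5 withdrawn mice. The authors trimmed reads with cutadapt, mapped them to GRCm38 (Ensembl release 91) with STAR and counted them per gene with HTSeq. The deposited values are raw counts per gene, not normalized or pooled, and the tallies of reads outside genes (5.77 to 48.1% per mouse, highest in withdrawn mouse 4) or shared by several genes (2.07 to 4.13%) were kept out of library sizes and tests. Mice were grouped by the treatment label. Symbols, positions and exon lengths came from GENCODE M21 on the same build, and promoter sequences from RefSeq, whose table matched 7 of the 9 members.

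Withdrawn and naïve mice were compared with edgeR 4.0.16 in R 4.3.3. The settings were TMM, filterByExpr with a minimum count of 10 and a minimum total of 15, and a quasi-likelihood test. P was adjusted by Benjamini-Hochberg over all tested genes. The code was run on simulated data to check that it works, which did not measure the power to call these members. CPM used TMM-normalized library sizes and log2 CPM a prior count of 2. Members below the filter were compared by two-sided exact permutation. Library pairs were checked for duplicates, and none was found. Alternatives were DESeq2 1.42.0 (the study's test), voom in limma 3.58.1, other size factors and filters, a replicate block and mice left out. The members, the lists of pathway and marker genes and the tests were chosen with earlier results of these data known. Named were the members, for each role the genes with an unadjusted p under 0.05 and the most abundant gene, the microglial markers P2ry12, Tmem119, Cx3cr1, Csf1r and Aif1, the sort genes Crhr1, Slc17a7 and Gad2, and the 3 genes closest to each tested member. Ptgdr, Dcn, Lum, Igf2, Gja1, Cr1l and gene copies were named after their values were seen. Other fits for Serping1, C1qbp and the pathway count and marker sums without 1 gene were added after seeing the data. Some genes of the lists are not reported here, and the counts and sums over lists leave them out.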

Additional observations from a re-analysis of the deposited data

Results flagged for a closer look

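A mouse lay far from its group in 2 of the 18 sets of member values (9 genes in each of 2 groups). The chance rate of this rule, about 1 in 20 sets, is for normally distributed values. Mice without a read all share a log2 CPM of -2.80, so that rate does not hold for sets with such mice. Both flagged sets have them, and the 2 flags cannot be set against chance. C1qc in naïve mouse 4 stood at a log2 CPM of 1.77, and the other 5 naïve mice, all without a read, at -2.80. With those 5 values tied, any C1qc read in naïve mouse 4 would have been flagged. C4b in withdrawn mouse 2, also without a read, stood at a log2 CPM of -2.80, and the next lowest withdrawn mouse at 2.73.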

How the results depend on the processing

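No member was called in any of the 8 alternative settings or the 11 fits that left out 1 mouse. A fit could call only the members it kept. Requiring at least 10 counts in every mouse kept only Cd55 and C1ql3. The 5 members below the filter had a fitted value only in DESeq2, which gave C1qc no p, and with no filter. For a member left out of a fit, the lack of a call carries no result. Over all genes the number called was 1, against 348 in DESeq2 (329 higher, 19 lower), 137 with no filter, 30 with at least 10 counts required in every mouse, 0 without the 3 mice of disagreeing labels and 0 with a replicate block. It ranged from 0 to 193 when 1 mouse was left out, highest without withdrawn mouse 2, and was 6 without naïve mouse 2.

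The threshold of a member value was an adjusted p of 0.05 with a log2 fold change beyond 0.6 for the 4 members in the edgeR test. The same threshold held for the 5 others in DESeq2 and with no filter. In the remaining settings it was an unadjusted exact permutation p of 0.05 for these 5. Of 154 member values under alternatives, 141 kept their direction and side of it, 12 changed sign and 1, C3 without the 3 mice (3.02, unadjusted p = 0.0357), passed it. C1qc became -0.49 in DESeq2 and -0.46 with no filter, and C1ql3 0.0034 and Cd55 0.041 in voom. With 1 mouse left out, log2 values ranged from 0.50 to 1.70 for C1qa, -1.55 to -0.56 for C1qb, -0.24 to 1.13 for C1qc, -0.48 to 0.47 for C1s1, 0.21 to 1.44 for C3, 1.42 to 2.55 for C4b, -0.26 to 0.34 for Cd55 and -0.32 to -0.02 for C1ql3. Sign changes came without naïve 3 (C1s1 0.43), naïve 6 (C1s1 0.47), withdrawn 2 (C1s1 0.37), withdrawn 5 (C1s1 0.36), withdrawn 3 (C1qc -0.24, Cd55 0.02), withdrawn 1 (Cd55 0.05) and naïve 5 (Cd55 0.34). Pathway genes with an unadjusted p under 0.05 numbered 2, against 4 in DESeq2, 5 with no filter, 1 in voom and 1 with at least 10 counts in every mouse, and 1 to 3 with 1 mouse left out (1 without naïve mouse 1, withdrawn mouse 1 or withdrawn mouse 4). The cause of these changes was not tested.

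Same-numbered mice are different animals, and the 5 pairs correlated at -0.20 to 0.18, so the replicate block is no pairing. With the block C1ra was 5.61 and C4b 4.26, and no call changed. 5 of the 9 members had too few reads for the filter. The limit of 3 counts applies to a count of 0 in 1 library and is not the smallest difference between groups that could be detected. For C1qa the withdrawn mean CPM was 14 times the naïve mean, with coefficients of variation of 156% in naïve and 177% in withdrawn mice. Its exact permutation test gave p = 0.229.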

Other observations

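DESeq2, which tests genes below the filter, gave an unadjusted p under 0.05 to a further pair of complement genes with few reads. Itgb2, the beta chain of the complement receptors on myeloid cells, had 0.0248 ± 0.0403 CPM in naïve and 0.956 ± 1.26 CPM in withdrawn mice, with reads in 5 of 11 mice (adjusted p = 0.192 in DESeq2). C2, cleaved by C1s together with C4, had 0.240 ± 0.233 and 1.1 ± 1.2 CPM (adjusted p = 0.426 in DESeq2), and 1817 of its 3872 exonic bases overlap other genes, so its reads are uncertain.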
